A study of Mus musculus with 13 samples.

Results

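Brain transcripts of mice kept at 8000 m for 24 h with 6-OHG were compared with those of mice given the same exposure without it. The compound is known only by this code name, and the labels give no dose, route or time of dosing. The comparison rests on 4 libraries with 6-OHG and the 5 libraries without it, called Mod, out of 13 libraries in all. Both groups were male Balb/c mice aged 6 to 8 weeks and shared the altitude exposure, so that the compound was the labelled difference between them. The other 4 libraries (Con) came from mice of the same strain, sex and age in the normal condition without 6-OHG, and they entered the model and the figures as a reference level only. The brain region is not named. Every gene with a mean of at least 1 FPKM (fragments per gene, adjusted for the gene's length and the library's total) over the 13 libraries was taken, which left 13905 of 37636 gene IDs.

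The labels do not state whether the replicates came from different mice, so p-values measure the spread between these libraries, which may be technical. Total reads per library are not given. A rough estimate from the lowest values put the deepest of the 9 libraries at 1.04 times the shallowest, but it rested on 4.29% to 5.31% of those values, and the counting error behind a value stayed unknown. FPKM summed to between 272992 and 312908 per library over the 9. Of the 9, 6-OHG replicate 2 was the library least like its group, with a mean correlation of 0.963 with its group across genes.

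Hypoxia is sensed through HIF-1, a transcription factor whose alpha subunit is hydroxylated and degraded while oxygen is plentiful and is stable when it is scarce. It switches on genes of vessel growth, glucose uptake, glycolysis and lactate export. Neurons also change their ion channels and synaptic proteins with activity and energy supply, and ribosomes and the respiratory chain make up much of what a brain cell transcribes from short, abundant genes.

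The change between the groups followed the exon length of genes. Genes with long exons tended to be higher with 6-OHG and genes with short exons lower. In each library, the slope of log2(FPKM + 1) on the log2 of a gene's summed exon length was taken over 13894 genes with a known length. The slopes were 0.0473, 0.0406, 0.0434 and 0.0555 with 6-OHG. They were -0.0134, -0.0152, -0.0202, -0.000483 and -0.0206 in Mod. All 4 libraries with 6-OHG therefore lay above all 5 Mod libraries. The Con libraries, at 0.0199, 0.0124, 0.0289 and 0.00339, lay between the groups without overlap at this minimum of 1 FPKM. The group means were 0.0467 ± 0.00649 (SD, n = 4) and -0.0140 ± 0.00816 (SD, n = 5), a difference of 0.0607 with p = 0.0159 in an exact two-sided permutation test and 0.0278 after Benjamini-Hochberg adjustment over 7 values per library. For 4 libraries against 5, 0.0159 is the smallest p that this design can give.

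**Figure D1:**
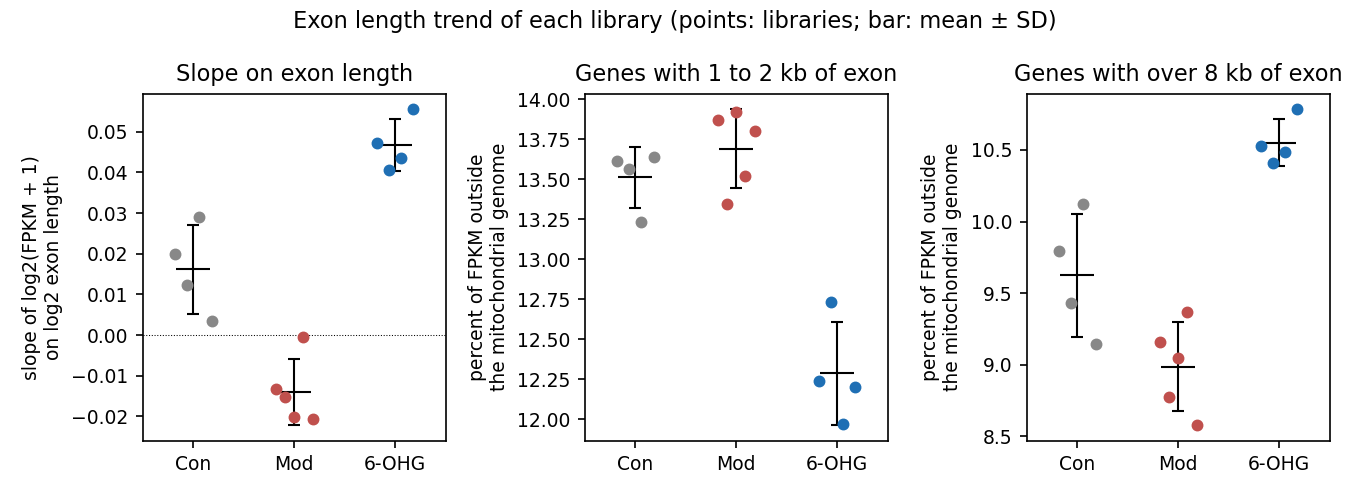
Slope of log2(FPKM + 1) on log2 exon length (left), and the percent of FPKM outside the mitochondrial genome in genes with 1 to 2 kb (middle) and over 8 kb of exon (right), for each library of Con, Mod and 6-OHG. Points are libraries and bars are means ± SD. With 6-OHG the slope was 0.0406 to 0.0555 in 4 libraries, above the 5 Mod libraries at -0.0206 to -0.000483, and the axes of percent do not start at 0.

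The same shift was seen in how the FPKM outside the mitochondrial genome were divided. Genes with over 8 kb of exon held 10.55% ± 0.162 with 6-OHG and 8.99% ± 0.313 in Mod, and genes with 4 to 8 kb held 28.39% ± 0.296 and 26.12% ± 0.713. Genes with 1 to 2 kb held 12.29% ± 0.322 and 13.69% ± 0.247. In each of these 3 classes the groups did not overlap (exact permutation p = 0.0159, adjusted 0.0278). Genes under 1 kb held 19.80% against 21.75% (exact permutation, adjusted p = 0.0666) and genes of 2 to 4 kb 28.97% against 29.45% (adjusted 0.240), which did not pass. The share of genes encoded in mitochondria was 24.02% ± 1.13 against 25.02% ± 2.52 (exact permutation, adjusted p = 0.508).

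In the fit to the values as deposited, with limma and Benjamini-Hochberg adjustment over all 13905 genes, 970 genes were called higher with 6-OHG, 6.98% of those tested, and 1161 lower, 8.35%. The called genes changed by a median of 0.32 on the log2 scale. The median exon length was 7986.5 bases for genes called higher and 2009 for genes called lower, against 4102.5 over all genes. The trend with exon length was then removed from each library, and the same test was run. It called 580 genes higher, 4.17% of 13894, and 523 lower, 3.76%, with median exon lengths of 4825.5 and 3718 bases. Both fits called 471 genes higher and 435 lower, and 0 genes were called in opposite directions. As deposited only, 499 were called higher and 726 lower; after removal only, 109 and 88. Without regard to a model, the 4 libraries with 6-OHG lay above all 5 Mod libraries in 1057 genes (7.6%) and below all of them in 1159 (8.34%).

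The split into higher and lower calls depended on the scaling of the libraries. As deposited, 45.5% of called genes were higher. With every library scaled to the same FPKM sum, 1385 were called higher and 398 lower (77.7% higher). With equal sums outside the mitochondrial genome the counts were 1792 and 661 (73.1%), and with quantile normalization 1307 and 965 (57.5%). After removal of the exon length trend, 52.6% of called genes were higher. Without 6-OHG replicate 4, 600 genes were called higher and 757 lower as deposited, and without Mod replicate 2, 635 were called higher.

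Across length classes the calls as deposited changed sides. Under 1 kb of exon 15 of 1316 genes were called higher and 230 lower. From 1 to 2 kb the counts were 25 and 350 of 1614, and from 2 to 4 kb 86 and 403 of 3855. From 4 to 8 kb they were 360 and 160 of 4790, and over 8 kb 484 and 18 of 2319. The median log2 change ran from -0.16 under 1 kb and -0.18 at 1 to 2 kb to 0.12 over 8 kb. After removal of the trend, the counts were 43 and 73 under 1 kb, 58 and 80 at 1 to 2 kb, 127 and 124 at 2 to 4 kb, 219 and 170 at 4 to 8 kb, and 133 and 76 over 8 kb. Among protein-coding genes the change correlated with log2 exon length at r = 0.517 as deposited and 0.115 after removal (12027 genes), and with the length of the longest transcript at 0.563 and 0.208. These correlations are across genes of the same libraries and are given as a description; they show that the removal left part of the trend in protein-coding genes. The change also ran with GC content, at r = -0.274 before and -0.187 after removal over 13894 genes. RNA quality is not given in the sources used here, and its part in the length trend was not tested.

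**Figure D2:**
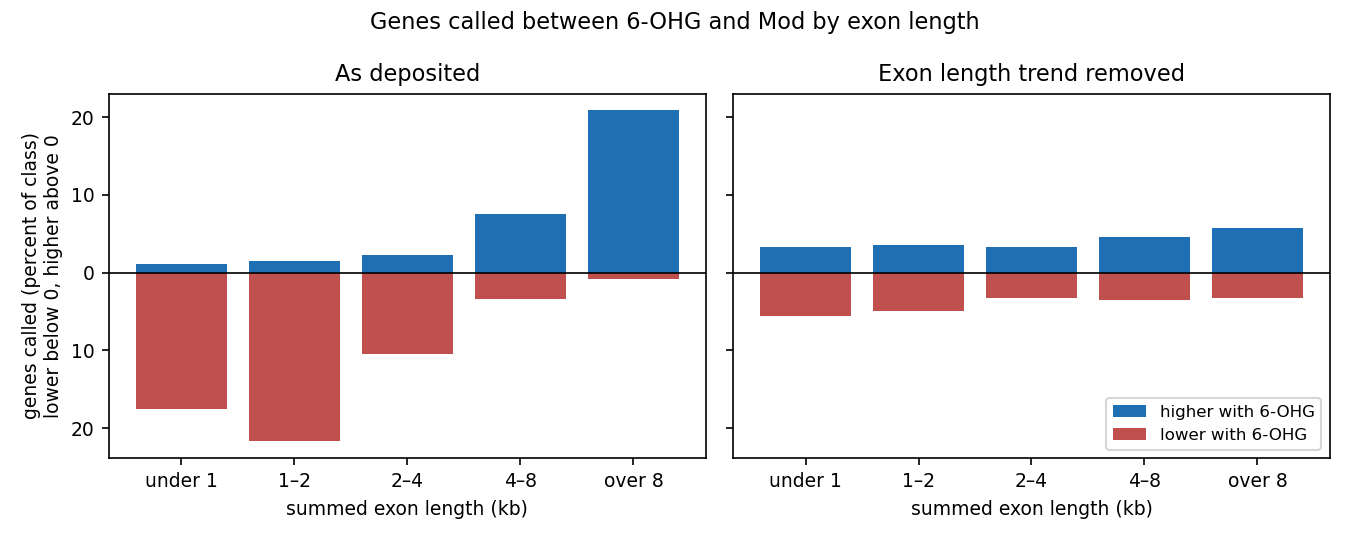
Percent of genes in each class of summed exon length (kb) that were called higher (above 0) or lower (below 0) with 6-OHG, as deposited (left) and after removal of the exon length trend of each library (right). As deposited, 20.9% of genes over 8 kb were called higher and 21.7% of genes of 1 to 2 kb lower, whereas after removal every class had between 3.22% and 5.74% on each side.

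Because of this trend, each result below is given in both fits. Counts called in a list stand beside the shares of all genes, or of the length class that holds the list's median. These classes hold all kinds of RNA. Part of the trend remained in protein-coding genes after removal, and no share by class was taken for those genes alone. The shares of all genes were 6.98% called higher and 8.35% lower as deposited, and 4.17% and 3.76% after removal. A change is the difference in mean log2(FPKM + 1), 6-OHG minus Mod, on which the fold of a gene at low FPKM is understated. A range over left-out libraries covers each of the 13 left out in turn, Con included, because all groups share the estimate of spread.

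The 12 largest rises among genes called in both fits, with no overlap between the groups, included an ion channel, a receptor subunit and a sulfotransferase. Predicted and unnamed loci were left out of this ranking and of that of the falls, so larger changes in such loci are not shown. Kcna1 (chr6:126640397-126646384 on the minus strand, GRCm38) encodes Kv1.1, a potassium channel subunit of axons. Its levels were 18.6, 20.4, 18.4 and 17.2 FPKM with 6-OHG and 10.6, 9.39, 9.89, 9.81 and 7.41 in Mod, so the lowest library with 6-OHG stood well above the highest Mod library. The change was 0.92 (SE 0.09, limma adjusted p = 0.000746) as deposited and 0.92 (adjusted p = 0.00137) after removal. Gabrb2 (chr11:42419757-42629028, plus strand) encodes the beta-2 subunit of the GABA-A receptor, the chloride channel of fast inhibition. It stood at 20.4, 17.4, 19.1 and 21.6 FPKM with 6-OHG and 10.7, 9.03, 10.3, 11.2 and 8.71 in Mod, again without overlap, and changed by 0.91 (SE 0.09, adjusted p = 0.000837) and 0.86 (adjusted p = 0.00138). Kctd16, an auxiliary subunit of GABA-B receptors, rose from 2.29 ± 0.724 to 5.61 ± 1.29 FPKM (change 1.02, after removal 1.07).

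Several of the strongest rises lay in short genes, against the trend. Hs6st3 (chr14:119138341-119869815, plus strand), a heparan sulfate sulfotransferase with 1708 bases of exon, stood at 5.45, 5.45, 4.29 and 5.004 FPKM with 6-OHG and 2.497, 1.88, 1.71, 2.34 and 1.25 in Mod. The change was 1.06 (SE 0.12, adjusted p = 0.001001) and became 1.20 (adjusted p = 0.00138) after removal of the trend. Fam205c (1871 bases) stood at 5.14, 3.15, 3.93 and 3.74 FPKM with 6-OHG and 1.17, 2.31, 1.297, 1.32 and 0.626 in Mod and changed by 1.11 and 1.25. Kcna3, the Kv1.3 potassium channel subunit (1902 bases), rose from 0.786 ± 0.159 to 2.06 ± 0.586 FPKM, with changes of 0.76 and 0.90. The groups did not overlap in any of these 3 genes, whereas 25 of the 1614 genes in their length class were called higher as deposited.

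Other genes among the 12 largest rises included Stxbp5l, a SNARE-binding protein of the tomosyn kind, at 5.597 ± 0.322 FPKM with 6-OHG and 2.67 ± 0.366 in Mod. Its change was 0.85 as deposited and 0.76 after removal. Xkr4, of the XK-related scramblase family, went from 3.01 ± 0.312 to 6.54 ± 0.875 FPKM, and Faxc from 3.57 ± 0.5299 to 7.21 ± 0.439. Klhl11, a substrate adaptor of cullin ubiquitin ligases, went from 3.59 ± 0.999 to 7.85 ± 1.07. Slc9a7, a sodium/proton exchanger, went from 1.47 ± 0.499 to 3.58 ± 0.626, and the zinc finger gene Zkscan16 from 8.38 ± 1.75 to 16.4 ± 2.73. All 6 kept their calls in both fits with any 1 library left out. Pakap, a locus of an A-kinase anchoring protein, rose from 1.22 ± 0.607 to 3.24 ± 0.634 FPKM (change 0.97, adjusted p = 0.0183), a call lost without 6-OHG replicate 3 (adjusted p = 0.05500). After removal it was lost without any 1 of Con replicate 1, Mod replicates 2 to 5 and 6-OHG replicates 1 to 4 (adjusted p up to 0.103).

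**Figure D3:**
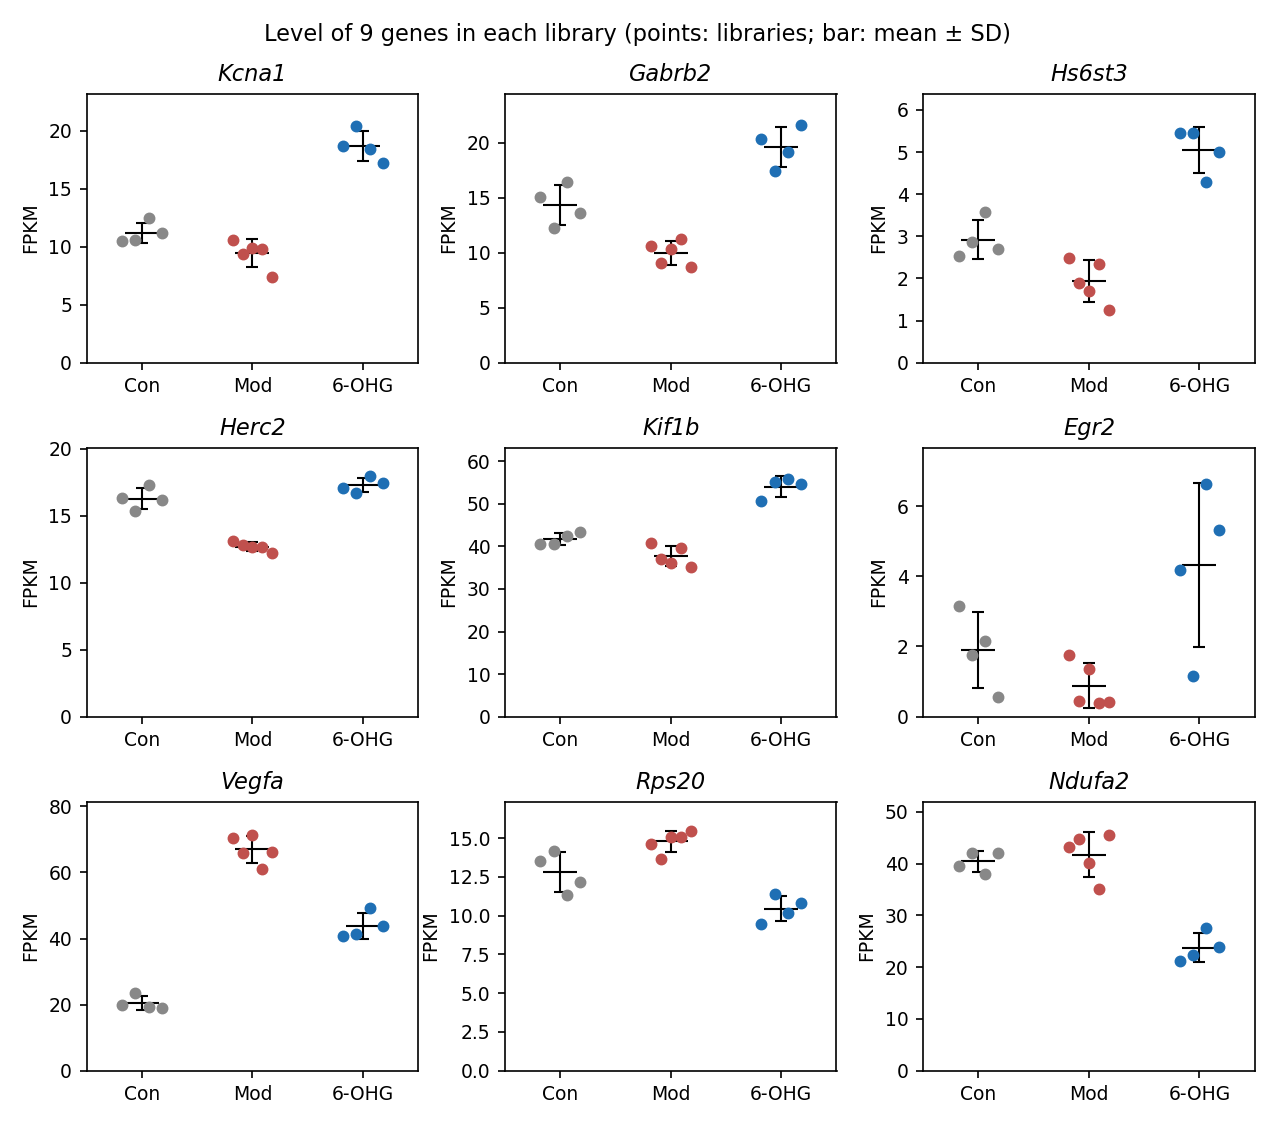
FPKM of 9 genes in each library of Con, Mod and 6-OHG, with means ± SD. In Kcna1, Gabrb2, Hs6st3, Herc2 and Kif1b every library with 6-OHG lay above every Mod library and in Vegfa, Rps20 and Ndufa2 below. In Egr2 the groups overlapped, because 6-OHG replicate 2, at 1.15 FPKM, lay within the range of Mod.

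The 12 largest falls by the same rule were those of Hcrt, Adm, Rps28, Pgf, Gng11, Cox7a1, Mtln, Lcat, Ndufa2, Fabp7, Nme3 and Cisd3. Mtln, a micropeptide of the inner mitochondrial membrane, stood at 7.14, 5.21, 6.81 and 5.35 FPKM with 6-OHG and 11.2, 11.4, 12.7, 10.2 and 12.1 in Mod. Without overlap of the groups, the change was -0.82 (SE 0.11, adjusted p = 0.00144) and -0.64 (adjusted p = 0.00729). Lcat, which esterifies cholesterol of lipoproteins, fell from 19.6 ± 4.34 to 10.6 ± 0.849 FPKM, and Fabp7, the fatty acid binding protein of astrocytes and radial glia, from 9.85 ± 2.04 to 5.25 ± 0.728. Cisd3, an iron-sulfur protein of mitochondria, fell from 10.7 ± 1.28 to 6.09 ± 0.985. These 4 kept their calls in both fits with any library left out. Gng11, a G protein gamma subunit, Nme3, a nucleoside diphosphate kinase, and Cox7a1, a subunit of cytochrome oxidase, fell by 0.88, 0.74 and 0.88 on the log2 scale as deposited. Cox7a1 was listed at 0 in 6-OHG replicate 1. After removal, Gng11 was lost without any 1 of Mod replicates 1, 2, 3 and 5 and 6-OHG replicates 1 and 4 (adjusted p up to 0.0611). Nme3 was lost without any 1 of Mod replicates 1, 3 and 4 and 6-OHG replicates 1, 2 and 4 (up to 0.0777), and Cox7a1 without any 1 of Mod replicates 1 to 3 and 6-OHG replicates 1, 3 and 4 (up to 0.0795).

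HIF-1 target genes were called in 1 direction. Of 36 members measured, 8 were called lower and 0 higher as deposited, where 8.35% of all genes were called lower, and 7 were called lower and 0 higher after removal. The list's median change was -0.11 and -0.07, beside -0.02 and -0.00 over all genes, and its sign was negative under each scaling tried. The mean log2 level of the list was 3.297 to 3.351 in the libraries with 6-OHG and 3.512 to 3.56 in Mod, without overlap. It was 2.87 to 2.90 in Con. Members called in both fits included Vegfa, Adm, Pgf, Slc16a3, Ankrd37 and P4ha2.

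Vegfa (chr17:46016993-46032369, minus strand), the main growth factor of vessels, stood at 40.8, 41.5, 49.4 and 43.7 FPKM with 6-OHG and 70.5, 65.9, 71.4, 61.1 and 66.2 in Mod. Its change was -0.60 (SE 0.08, adjusted p = 0.00113) and -0.58 after removal (adjusted p = 0.00374). Slc16a3, which exports lactate, stood at 1.03, 1.28, 1.25 and 1.27 FPKM with 6-OHG and 1.79, 1.897, 2.62, 2.12 and 1.99 in Mod, and changed by -0.48 and -0.50. Both genes kept their calls with any library left out, and in both the groups did not overlap. Slc16a3, with 5318 bases of exon, had a slightly larger fall after removal, so it fell against the trend. Vegfa, with 4285 bases, had a slightly smaller fall after removal, so its fall was not against the trend. P4ha2, a collagen prolyl hydroxylase, stood at 2.53 ± 0.282 against 3.25 ± 0.216 FPKM (change -0.27). As deposited it lost its call without any 1 of Mod replicate 1 and 6-OHG replicates 1, 3 and 4 (adjusted p up to 0.0665), and after removal without 6-OHG replicate 4 (0.0578). Ankrd37 stood at 4.72 ± 0.481 against 8.03 ± 1.35 FPKM (change -0.65), and after removal its adjusted p of 0.0388 was over 0.05 without any 1 of Con replicates 1 and 3, Mod replicates 2 to 5 and 6-OHG replicates 1 to 4, reaching 0.105.

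Adm encodes adrenomedullin, a vasodilator peptide, and Pgf placental growth factor, a ligand of the VEGF receptor Flt1. They had the largest falls among the called HIF-1 targets, and their promoters are shown for the letters of the hypoxia response element. Adm stood at 2.86, 2.07, 3.17 and 2.35 FPKM with 6-OHG and 4.57, 8.75, 8.03, 6.14 and 8.87 in Mod. Pgf stood at 0.554, 1.198, 0.814 and 1.001 FPKM and 2.102, 3.58, 3.29, 1.77 and 2.86. In both, every library with 6-OHG lay below every Mod library. Adm changed by -1.17 (SE 0.16, adjusted p = 0.00157) and -1.02 after removal. Pgf changed by -0.96 (SE 0.18, adjusted p = 0.004503) and -0.88. Each window covers the bases just before and after the transcription start, read 5′ to 3′ on the strand of the gene, from RefSeq on GRCm38.p6. Adm is at chr7:110627407-110627706 on the plus strand and Pgf at chr12:85177264-85177563 on the minus strand. Capitals mark matches to the motifs ACGTG and GCGTG, searched on both strands, so that CACGC is GCGTG on the other strand.
Adm: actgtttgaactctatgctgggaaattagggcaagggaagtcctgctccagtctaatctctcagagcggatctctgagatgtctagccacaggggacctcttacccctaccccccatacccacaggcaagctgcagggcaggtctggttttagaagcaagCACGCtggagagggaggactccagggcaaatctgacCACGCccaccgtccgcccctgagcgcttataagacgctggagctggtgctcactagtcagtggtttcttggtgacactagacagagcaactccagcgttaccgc
Pgf: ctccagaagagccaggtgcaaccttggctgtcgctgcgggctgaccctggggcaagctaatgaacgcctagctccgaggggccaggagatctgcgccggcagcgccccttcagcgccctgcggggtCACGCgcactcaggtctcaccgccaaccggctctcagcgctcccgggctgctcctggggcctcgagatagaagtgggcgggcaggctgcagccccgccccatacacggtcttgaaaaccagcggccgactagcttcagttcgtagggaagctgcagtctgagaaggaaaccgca
The Adm window held 2 matches to GCGTG and the Pgf window 1, and neither held ACGTG. Pgf has 2 windows in the reference table, of which 1 was searched and is shown. The motif GCGTG was found in 32.6% of 27025 windows of this length and in 17 of 26 windows of HIF-1 targets (65.4%), and ACGTG in 19.6% and in 16 of 26 (61.5%). Among the 9773 tested genes with a window the shares were 52.4% and 26.1%. A match is a description of letters and not a binding site.

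Genes of vessel growth, some of them also HIF-1 targets, were counted in a list of 26, of which 5 were called lower and 0 higher as deposited, and 3 (Vegfa, Pgf and Adm) lower after removal. The other 2 were Ramp3, a receptor partner of adrenomedullin, also in the list of thalamic markers, at 7.44 ± 1.56 against 11.97 ± 1.94 FPKM (change -0.63, adjusted p = 0.0136; after removal 0.0865) and Vegfb, a relative of Vegfa named after its value was seen, which lost its call without any 1 of Mod replicates 1, 3 and 5 and 6-OHG replicates 1, 3 and 4 (adjusted p up to 0.0804). Egfl7, a factor secreted by endothelium, stood at 6.43, 6.59, 7.35 and 4.69 FPKM with 6-OHG and 9.83, 10.2, 9.52, 8.65 and 9.83 in Mod, without overlap, and was called in both fits (-0.56 and -0.51). Of 13 endothelial markers measured, Egfl7 included, 2 were called in each direction as deposited and 1 in each after removal. For the vessel and endothelial lists, the shares of all genes were 6.98% called higher and 8.35% lower as deposited, and 4.17% and 3.76% after removal. The efflux pump Abcb1a rose from 3.304 ± 0.512 to 4.85 ± 0.665 FPKM (change 0.44, adjusted p = 0.009597; after removal 0.42, 0.0214, lost without any 1 of Mod replicate 3 and 6-OHG replicate 3, up to 0.0597). Slco1a4, a transporter of the blood-brain barrier, was called higher and Cldn5, a tight junction protein, lower, both as deposited only. The first was lost without any 1 of Mod replicates 2 and 3 and 6-OHG replicates 1 to 3 (adjusted p up to 0.0733) and the second without any 1 of Mod replicates 1, 2 and 5 and 6-OHG replicates 1, 2 and 4 (up to 0.0849).

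Enzymes of glycolysis were also called lower. Of 17 enzymes measured, 8 were called lower and 0 higher as deposited, and 6 and 0 after removal. The median change was -0.20 and -0.19. Over all genes, 8.35% were called lower as deposited and 3.76% after removal. With libraries scaled to equal sums 2 of the 17 were called lower, and with quantile normalization 3 were called lower and 1 higher, while the median stayed negative under every scaling tried. Pfkl, a phosphofructokinase, stood at 22.2, 20.4, 21.9 and 23.2 FPKM with 6-OHG and 29.9, 32.4, 31.02, 27.97 and 26.7 in Mod. Gpi1, which makes fructose 6-phosphate, stood at 133, 122, 115 and 132 and 147, 154, 166, 151 and 138. Neither gene overlapped between the groups, and both have long exons, of 6675 and 6452 bases. Pfkl changed by -0.42 (adjusted p = 0.00317) and -0.47 after removal, and Gpi1 by -0.26 (adjusted p = 0.0145) and -0.31.

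Gapdh stood at 7.29 ± 0.357 FPKM with 6-OHG and 9.77 ± 0.241 in Mod (change -0.38 and -0.35). Its value is uncertain, since the genome holds many processed copies of it and the sources used here do not say how reads common to the copies were counted. Aldoa and Tpi1, an aldolase and the triosephosphate isomerase, fell by 0.31 and 0.29 on the log2 scale as deposited. After removal their adjusted p were 0.0418 and 0.0433. Aldoa was lost there without any 1 of Con replicates 1 to 3, Mod replicates 1 to 5 and 6-OHG replicates 2 to 4 (up to 0.106), and Tpi1 without any 1 of Con replicates 1 and 3, Mod replicates 1 to 5 and 6-OHG replicates 2 to 4 (up to 0.1100). Eno1, an enolase, was called in both fits at -0.24 and -0.26. As deposited it was lost without any 1 of Mod replicate 3 and 6-OHG replicates 3 and 4 (adjusted p up to 0.0632). After removal it was lost without any 1 of Mod replicates 1 to 3 and 6-OHG replicates 3 and 4 (up to 0.0662). The list's count as deposited was 5 without Mod replicate 3 or 6-OHG replicate 3 or 4. After removal that count was 3 without Mod replicate 1, 2 or 3 or 6-OHG replicate 3 or 4. Pgam1 and Ldha, named after their values were seen, were called lower as deposited only. Pgam1 was lost without any 1 of Mod replicates 3 and 5 and 6-OHG replicates 3 and 4 (adjusted p up to 0.0654), and Ldha without any 1 of Con replicate 3, Mod replicates 1 to 4 and 6-OHG replicates 2 to 4 (up to 0.118).

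Ribosomal protein genes were the list with the most genes called lower. Of 64 members of the cytosolic ribosome, 49 were called lower and 0 higher as deposited, and 31 and 0 after removal. The median change was -0.38 and -0.27, negative under each scaling tried. With equal sums the counts called lower were 31 and 27, and with quantile normalization 38 and 15. Most of these genes are short, with a median of 1835 bases, and have processed copies elsewhere in the genome, so their levels are uncertain. Among all genes of 1 to 2 kb, 21.7% were called lower as deposited and 4.96% after removal. Rps16 stood at 37.1, 43.7, 42.1 and 39.99 FPKM with 6-OHG and 59.4, 56.4, 58.8, 56.5 and 60.4 in Mod. Rps21 stood at 37.7, 43.1, 49.7 and 43.5 and 74.8, 69.6, 74.97, 67.8 and 65.7. Neither gene overlapped between groups, and they changed by -0.51 and -0.69 as deposited and by -0.34 and -0.51 after removal.

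Members with long annotated exons fell in the same way. This length sums the exons of all annotated transcripts of a gene, so the transcripts present may be shorter. Rps20 (4080 bases) stood at 9.48, 11.4, 10.2 and 10.8 FPKM with 6-OHG and 14.7, 13.7, 15.1, 15.1 and 15.5 in Mod. It changed by -0.46 (adjusted p = 0.00181) and -0.44 (adjusted p = 0.00423). Rps19 (4685 bases) changed by -0.52 and -0.51, and Rps3 (4483 bases) by -0.34 and -0.33. Fau, whose product fuses a ribosomal protein to a ubiquitin-like protein, changed by -0.54 as deposited and by -0.36 after removal. These 6 genes kept both calls with any library left out. Rps28 was the member with the largest fall among those called in both fits whose libraries did not overlap, from 12.4 ± 2.66 to 5.45 ± 2.86 FPKM (-1.13 and -0.99). Its call after removal was lost without any 1 of Mod replicates 1 and 3 and 6-OHG replicates 1 and 4 (adjusted p up to 0.0679). The list's count after removal fell from 31 to 20 without Mod replicate 1, 16 without Mod replicate 3, 15 without 6-OHG replicate 1 and 16 without 6-OHG replicate 4.

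Proteins of the mitochondrial ribosome gave 20 of 49 called lower as deposited and 6 after removal, with 0 called higher in either fit and medians of -0.22 and -0.13. Their median exon length was 2617 bases. Among all genes of 2 to 4 kb, 10.5% were called lower as deposited and 3.22% after removal. Mrps21 stood at 13.3, 12.2, 12.7 and 13.6 FPKM with 6-OHG and 19.2, 19.96, 21.9, 20.9 and 20.4 in Mod, without overlap, and changed by -0.62 and -0.43. Mrps25, with 6576 bases of exon, changed by -0.50 and -0.55. The count of 6 after removal was 3 without Mod replicate 2, 10 without 6-OHG replicate 2, 2 without 6-OHG replicate 3 and 3 without 6-OHG replicate 4.

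Nuclear genes of the respiratory chain were mostly called lower as deposited, with fewer calls after removal, while genes of the mitochondrial genome were not called in either fit unless quantile normalized. In complex I, which oxidises NADH, 28 of 36 nuclear subunits were called lower and 0 higher as deposited, and 18 and 0 after removal (medians -0.37 and -0.23). In complexes II to V, 27 of 37 were called lower and 0 higher as deposited, and 13 and 0 after removal (medians -0.33 and -0.18). Both medians were negative under each scaling tried. The median exon lengths of the lists were 1532 and 1831 bases. Among all genes of 1 to 2 kb, 21.7% were called lower as deposited and 4.96% after removal. Ndufa2 stood at 21.1, 22.4, 27.5 and 23.9 FPKM with 6-OHG and 43.3, 44.8, 40.1, 35.2 and 45.6 in Mod, and it had the largest fall among the called members of complex I. It changed by -0.79 (SE 0.09, adjusted p = 0.000837) and -0.61 (adjusted p = 0.00423). Ndufa1 and Ndufa13 changed by -0.60 and -0.56 as deposited and by -0.43 and -0.39 after removal.

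Of the other complexes, Cox7c, a subunit of cytochrome oxidase, stood at 47.6, 47.6, 48.1 and 45.5 FPKM with 6-OHG and 66.3, 70.4, 76.3, 60.03 and 62.8 in Mod. Atp5e, a subunit of ATP synthase, stood at 11.2, 10.8, 14.9 and 12.1 and 17.6, 19.4, 18.9, 19.2 and 21.7. The groups did not overlap in either. Atp5l, another subunit of ATP synthase with 6443 bases of exon, changed by -0.34 and -0.39, against the trend of its length class. After removal, complex I had 11 genes called lower in place of 18 without 6-OHG replicate 3 or 4. Complexes II to V had 8 in place of 13 without Mod replicate 3 or 6-OHG replicate 1, and 6 without 6-OHG replicate 4. Of 13 protein-coding genes of the mitochondrial genome 0 were called by limma in either fit, and at an unadjusted p under 0.05 there were 2 lower as deposited and 0 after removal. The medians were -0.16 and 0.02. The sign of the first turned with quantile normalization, that of the second under other ways of removing the trend, and quantile normalization called 12 of the 13 higher after removal. mt-Co3, a core subunit of cytochrome oxidase, stood at 4244, 3958, 4639 and 4184 FPKM with 6-OHG and 4475, 6402, 4923, 4713 and 5338 in Mod, with overlap.

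**Figure D4:**
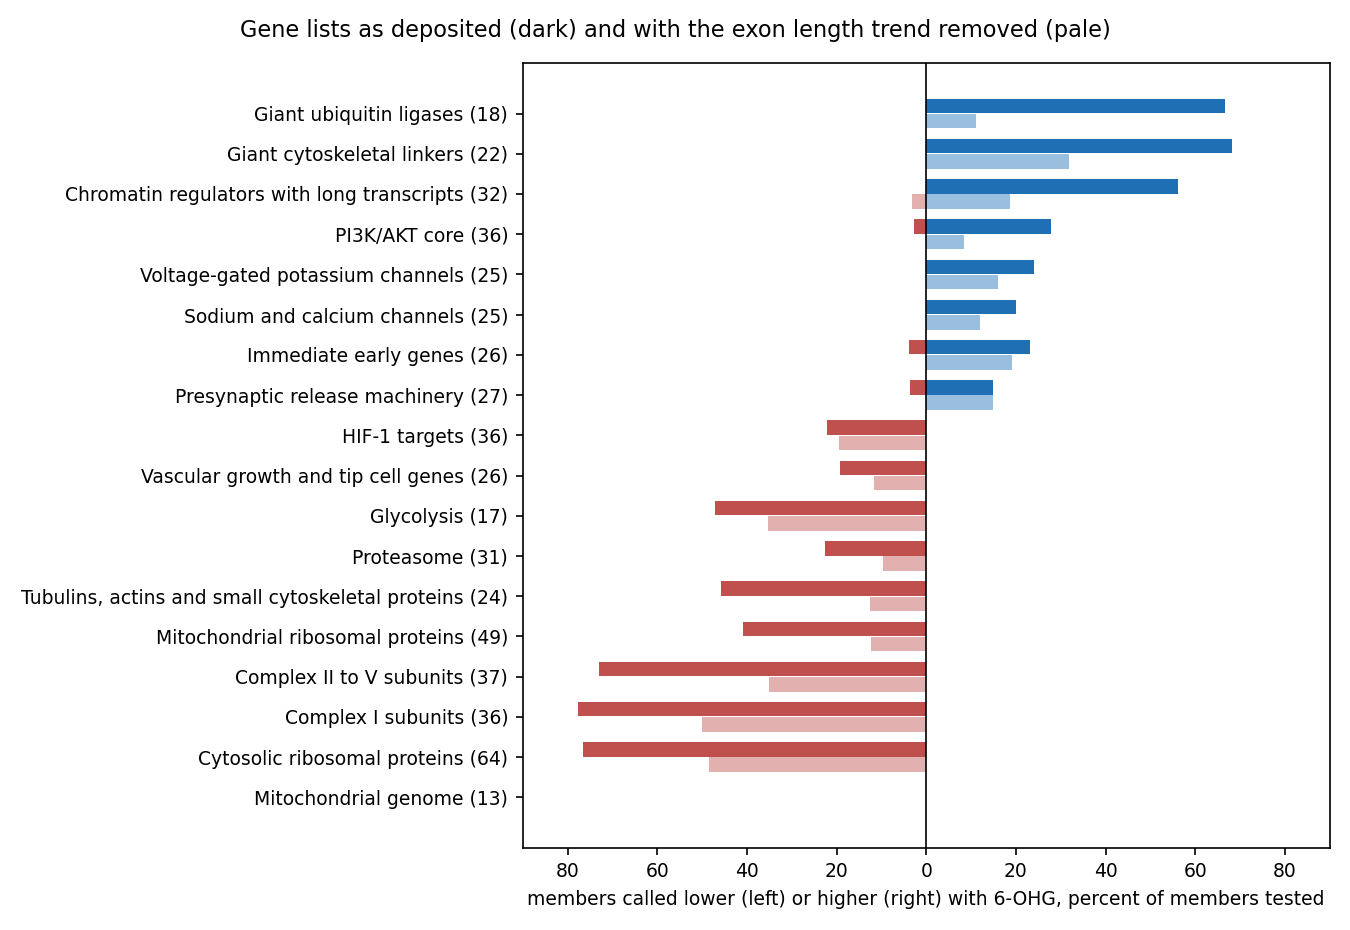
Percent of the tested members of 18 gene lists (members in brackets) that were called lower (left of 0) or higher (right) with 6-OHG, as deposited (dark bars) and after removal of the exon length trend (pale bars). Complex I had 28 of 36 genes called lower as deposited and 18 after removal, giant ubiquitin ligases 12 of 18 and 2 called higher, and the mitochondrial genome 0 in both.

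The proteasome, the splicing machinery and small cytoskeletal proteins were counted in the same way. Among all genes of 2 to 4 kb, 10.5% were called lower as deposited and 3.22% after removal. This class holds the median exon length of each of these lists except the SR and hnRNP regulators. For those the class is 4 to 8 kb, with 3.34% and 3.55% called lower. Of 31 proteasome subunits 7 were called lower as deposited and 3 after removal. These 3, Psmb6, Psma7 and Psmb1, changed by -0.24, -0.17 and -0.29, and 0 of the list were called after removal without Mod replicate 2 or 3 or 6-OHG replicate 1, 3 or 4, and 1 without Mod replicate 1 or 5. As deposited the 7 became 4 without Mod replicate 1 or 5 or 6-OHG replicate 3 or 4 and 11 without 6-OHG replicate 2. After removal Psmb6 was lost without any 1 of Con replicates 1 and 3, Mod replicates 1, 2, 3 and 5 and 6-OHG replicates 1, 3 and 4 (adjusted p up to 0.123). Of 20 Sm and LSm proteins of the spliceosome, 4 were called lower as deposited (7 without 6-OHG replicate 2, and 0 with equal sums) and 1 after removal. Of 33 SR and hnRNP splicing regulators 1 was called lower as deposited and 5 after removal. Those 5 became 0 without 6-OHG replicate 1, 1 without Mod replicate 2, 3 or 5, 2 without 6-OHG replicate 3, and 3 without Mod replicate 1 or 6-OHG replicate 4. The median of this list was -0.04 as deposited, a sign that turned with equal sums and quantile normalization, and -0.09 after removal. Of 24 tubulins, actins and other small cytoskeletal genes 11 were called lower as deposited and 3 after removal. Pfn1, the actin-binding profilin, stood at 24.3, 25.6, 27.2 and 26.3 FPKM with 6-OHG and 33.3, 31.6, 33.5, 32.9 and 35.4 in Mod, without overlap, and changed by -0.36 and -0.25. The 11 became 5 to 7 without any 1 of Mod replicates 1, 2, 3 and 5 and 6-OHG replicates 1, 3 and 4, and the 3 became 1 without any of these except Mod replicate 2. With equal sums 3 were called lower. Tmsb10, which binds actin monomers, and Tubb2b, a tubulin, were the other members called after removal. Tmsb10 lost that call without any 1 of Con replicates 1 to 3, Mod replicates 1, 2, 3 and 5 and 6-OHG replicates 1, 3 and 4 (adjusted p up to 0.116), and Tubb2b without any 1 of Mod replicates 1, 3 and 5 and 6-OHG replicates 1, 3 and 4 (up to 0.0714).

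Many genes of very large proteins were called higher as deposited, and most of those calls were lost with the trend. Of 18 giant ubiquitin ligases, with a median of 16309 bases of exon, 12 were called higher and 0 lower as deposited, and 2 and 0 after removal (medians 0.30 and 0.12). Of 32 chromatin regulators with long transcripts 18 were called higher and 0 lower as deposited, and 6 and 1 after removal (medians 0.23 and 0.08). Of 22 giant cytoskeletal linkers and motors 15 were called higher and 0 lower as deposited, and 7 and 0 after removal (medians 0.26 and 0.12). The shares of genes over 8 kb called higher were 20.9% and 5.74% in the 2 fits. This open class is not fully matched to the lists, whose median exon lengths were 16309, 14271 and 15981 bases. The median change of each list was positive under each scaling tried.

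Herc2, a ubiquitin ligase of the DNA damage response, stood at 17.1, 16.7, 17.97 and 17.4 FPKM with 6-OHG and 13.1, 12.8, 12.7, 12.7 and 12.2 in Mod. It changed by 0.42 (SE 0.05, adjusted p = 0.000837) as deposited and 0.25 (adjusted p = 0.00647) after removal. Its groups did not overlap. Birc6, an inhibitor of caspases, stood at 5.902 ± 0.203 against 4.45 ± 0.232 FPKM and changed by 0.34 (adjusted p = 0.00212), and after removal by 0.12 (0.2296), which did not pass.

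Kif1b, a kinesin that carries mitochondria and synaptic vesicle precursors, stood at 50.5, 55.01, 55.9 and 54.8 FPKM with 6-OHG and 40.8, 37.1, 36.2, 39.7 and 35.3 in Mod. The groups did not overlap, and the change was 0.51 (adjusted p = 0.000837) and 0.33 (adjusted p = 0.00544). Dync1h1, the heavy chain of dynein, changed by 0.39 and 0.23, Map1a, a microtubule-associated protein of dendrites, by 0.51 and 0.38, and Myo5a, a myosin that moves organelles, by 0.48 and 0.32. These 4 kept both calls with any library left out. Ank3, ankyrin-G of the axon initial segment, changed by 0.44 and 0.19, and its second call was lost without any 1 of Con replicates 1 to 3, Mod replicates 1 to 5 and 6-OHG replicates 1, 2 and 4 (adjusted p up to 0.108). The list's 15 calls as deposited became 9 without 6-OHG replicate 4. Its 7 calls after removal became 4 without any 1 of Con replicates 1 to 3, Mod replicates 1, 2, 3 and 5, and 6-OHG replicates 1 and 4.

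Among chromatin regulators, Ash1l, a histone H3 methyltransferase, stood at 14.8, 12.2, 13.4 and 14.8 FPKM with 6-OHG and 9.12, 8.42, 9.67, 10.2 and 8.26 in Mod. Bptf, the reader subunit of the NURF remodeller, stood at 8.36, 9.33, 8.65 and 9.39 and 6.51, 5.69, 6.72, 6.79 and 5.97. In both, all libraries with 6-OHG lay above Mod. They changed by 0.54 and 0.44 as deposited and by 0.39 and 0.28 after removal, and kept both calls with any library left out. The acetyltransferases Ep300 and Crebbp, which are close relatives, differed in their calls. Ep300 changed by 0.33 and 0.18 (adjusted p = 0.0335, lost without any 1 of Con replicate 1, Mod replicates 1 to 5 and 6-OHG replicates 1 to 3, up to 0.0846). Crebbp, named after its value was seen, changed by -0.04 (adjusted p = 0.648) as deposited, a sign that turned with equal sums (0.04), and by -0.19 after removal (adjusted p = 0.0410, lost without any 1 of Con replicate 1, Mod replicates 1 to 5 and 6-OHG replicates 1 to 4, up to 0.103). The difference between them was not tested. The 6 calls of the list after removal became 3 without any 1 of Mod replicates 1, 2, 3 and 5 and 6-OHG replicates 1 and 3.

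The series names the PI3K/AKT pathway, which carries signals of insulin and growth factors to cell survival and protein synthesis. Of its 36 core members measured, 10 were called higher and 1 lower as deposited, and 3 higher and 0 lower after removal (medians 0.15 and 0.04, positive under each scaling tried). Their median exon length was 8661.5 bases, and of all genes over 8 kb 20.9% were called higher as deposited and 5.74% after removal. Irs2, which couples insulin and IGF receptors to PI3K, stood at 10.99, 12.7, 11.3 and 12.4 FPKM with 6-OHG and 9.83, 7.62, 9.21, 8.48 and 8.87 in Mod. Pik3ca, a catalytic subunit of PI3K, stood at 7.12, 7.68, 7.51 and 7.49 and 5.75, 5.03, 6.01, 6.39 and 6.28. Pik3cb, the other catalytic subunit called, went from 4.18 ± 0.239 to 5.33 ± 0.599 FPKM. In these 3 the groups did not overlap, and they changed by 0.39, 0.30 and 0.29 as deposited and by 0.35, 0.20 and 0.22 after removal.

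The calls of the PI3K/AKT list after removal were thin. Irs2 lost its call without any 1 of Mod replicate 2 and 6-OHG replicates 2 to 4 (adjusted p up to 0.0694). Pik3ca lost it without any 1 of Con replicates 1 to 3, Mod replicates 1 to 3 and 6-OHG replicates 1 to 4 (up to 0.102), and Pik3cb without any 1 of Con replicates 1 to 3, Mod replicates 1, 2, 3 and 5 and 6-OHG replicates 1, 2 and 4 (up to 0.122). The list had 0 calls without Mod replicate 2 or 6-OHG replicate 4, and 1 without any 1 of Con replicates 1 to 3, Mod replicates 1 and 3 and 6-OHG replicates 1 to 3. Gsk3b, a kinase that AKT inhibits, changed by 0.30 (adjusted p = 0.0102) and 0.19 (0.0575), and Rictor, the scaffold of mTOR complex 2, by 0.26 (0.00798) and 0.09 (0.311). Bad, a proapoptotic protein that AKT phosphorylates, was the member called lower, at -0.33 (0.0172) and -0.23 (0.0939). With 6-OHG replicate 4 left out, 6 members were called higher as deposited, and with equal sums 16. RNA levels do not report the phosphorylation through which this pathway signals.

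Some ion channels were called higher, among many members that were not called. Of 25 voltage-gated potassium channels 6 were called higher and 0 lower as deposited, and 4 and 0 after removal (medians 0.16 and 0.05, positive under each scaling tried). Their median exon length was 7138 bases. Among all genes of 4 to 8 kb, 7.52% were called higher as deposited and 4.57% after removal. Besides Kcna1 and Kcna3, Kcna2, the partner of Kcna1 in axons, changed by 0.43 and 0.30. After removal Kcna2 lost its call without any 1 of Con replicates 2 and 3, Mod replicates 2 to 4 and 6-OHG replicates 1 to 4 (adjusted p up to 0.106). The 4 calls became 2 without any 1 of Con replicate 3, Mod replicates 2 to 4 and 6-OHG replicates 1 to 3.

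Of 25 sodium and calcium channels, 5 were called higher and 0 lower as deposited, and 3 and 0 after removal (medians 0.17 and 0.04). Their median exon length was 9942 bases, and of all genes over 8 kb 20.9% were called higher as deposited and 5.74% after removal, so the count as deposited was near this background. Scn8a, the sodium channel of the axon initial segment and nodes of Ranvier, stood at 22.4, 16.8, 19.4 and 18.9 FPKM with 6-OHG and 13.1, 13.7, 12.1, 13.5 and 11.3 in Mod. It changed by 0.56 (adjusted p = 0.00157) and 0.40 (adjusted p = 0.0121). Scn1a, the main sodium channel of inhibitory interneurons, and Scn2a, that of excitatory axons, changed by 0.56 and 0.56 as deposited and by 0.43 and 0.42 after removal. The groups did not overlap in these 3. After removal Scn1a lost its call without any 1 of Mod replicates 2 to 4 and 6-OHG replicates 1, 2 and 4 (adjusted p up to 0.08200), and Scn2a without any 1 of Mod replicates 1, 2, 3 and 5 and 6-OHG replicates 1, 3 and 4 (up to 0.0848). The list's 3 calls became 1 without any 1 of Mod replicates 2 and 3 and 6-OHG replicates 1 and 4, and its median after removal was -0.03 without 6-OHG replicate 1. As deposited, the 5 became 3 without Mod replicate 1, 2, 3 or 5 or 6-OHG replicate 4.

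Receptors and presynaptic genes followed. Gabrb2 was the 1 of 12 GABA-A subunits that was called, in both fits, and Grik3, a kainate receptor subunit, the 1 of 23 glutamate receptor genes, as deposited only (change 0.38, adjusted p = 0.0305; after removal 0.108). Grik3 lost its call without any 1 of Mod replicates 1, 2 and 5 and 6-OHG replicates 1, 3 and 4 (adjusted p up to 0.0927), while 3 glutamate receptor genes were called without Con replicate 4 and 4 without 6-OHG replicate 2. Among GABA-A subunits 2 were called as deposited without Mod replicate 5 or 6-OHG replicate 1. Of 27 presynaptic genes 4 were called higher and 1 lower as deposited, and the same 4 higher after removal. Among all genes of 4 to 8 kb, 7.52% were called higher as deposited and 4.57% after removal. This class holds the median exon lengths of the receptor lists and of the presynaptic list. Syt4 and Syt11, synaptotagmins of vesicle traffic, stood at 49.1 ± 2.19 against 39.8 ± 2.42 and 116 ± 1.95 against 97.04 ± 4.42 FPKM. They changed by 0.29 and 0.25, and by 0.33 and 0.24 after removal, and kept both calls with any library left out. Pclo, the active zone scaffold Piccolo, changed by 0.48 and 0.28, and its call after removal was lost without any 1 of Mod replicate 1 and 6-OHG replicates 1, 3 and 4 (adjusted p up to 0.0636). After removal, 2 of the list were called without 6-OHG replicate 1 or 3. Rab3a, a vesicle GTPase named after its value was seen, was the member called lower, and it was lost without any 1 of Con replicates 1 to 3, Mod replicates 1, 2, 3 and 5 and 6-OHG replicates 3 and 4 (adjusted p up to 0.118).

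Of 28 synaptic adhesion and scaffold genes 2 were called higher as deposited and 1 after removal, Pcdh9, a protocadherin, at 16.4, 18.3, 17.7 and 17.8 FPKM with 6-OHG and 14.5, 12.8, 12.7, 13.7 and 14.5 in Mod. Its groups did not overlap, and it changed by 0.34 and 0.29. The list's count was near the 6.98% of all genes called higher as deposited and under the 20.9% of genes over 8 kb, at a median exon length of 9352 bases. Cntnap1, a protein of the axon beside the node of Ranvier, was the other, and its call was lost without any 1 of Mod replicates 3 to 5 and 6-OHG replicates 1, 3 and 4 (adjusted p up to 0.1). Without Con replicate 4 there were 4 calls in this list as deposited, and without 6-OHG replicate 2 there were 5. Of 9 neurotrophins and their receptors, Ntrk2, Ntrk3 and Sort1 were called higher as deposited and 0 by limma after removal, with 1 higher at an unadjusted p under 0.05. Ntrk2 and Ntrk3, the receptors of BDNF and neurotrophin-3, have 19292 and 30170 bases of exon. Their changes went from 0.26 and 0.22 to 0.07 and -0.01, the last with a sign that turned under several ways of removing the trend. As deposited, 0 of the 3 were called without Mod replicate 2, 3 or 5 or 6-OHG replicate 4, and 1 without 6-OHG replicate 2 or 3.

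Immediate early genes are switched on fast by neuronal activity and growth factors, and their mean level was higher in 3 of the 4 libraries with 6-OHG than in any Mod library. Of 26 members measured, 6 were called higher and 1 lower as deposited, and 5 and 0 after removal, with medians of 0.51 and 0.53, positive under each scaling tried. The mean log2 level of the list was 3.31, 2.74, 3.52 and 3.31 with 6-OHG and 2.96, 2.56, 2.74, 2.53 and 2.63 in Mod. Replicates 1, 3 and 4 with 6-OHG lay above all Mod libraries, and replicate 2 lay within them. The count of calls rested on single libraries. It was 12 as deposited and 13 after removal without Con replicate 4, and 11 and 10 without 6-OHG replicate 2. Without Mod replicate 2 or 6-OHG replicate 3 it was 1 and 0, without 6-OHG replicate 4 it was 1 and 1, and without Mod replicate 5 or 6-OHG replicate 1 it was 3 and 1. After removal it was also 1 without Mod replicate 3 and 2 without Mod replicate 4. With Con replicate 4 and 6-OHG replicate 2 both left out, chosen after the data were seen, it was 17 in both fits.

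Egr2 and Nr4a1 had the largest rises among the called members. Egr2 encodes a zinc finger transcription factor and stood at 4.17, 1.15, 6.63 and 5.31 FPKM with 6-OHG and 1.77, 0.441, 1.37, 0.397 and 0.426 in Mod. Nr4a1 encodes an orphan nuclear receptor and stood at 28.4, 12.7, 31.4 and 24.9 and 14.4, 6.68, 11.8, 6.97 and 7.15. In both genes 6-OHG replicate 2 lay inside the range of Mod and the other 3 above it. Egr2 changed by 1.42 (SE 0.37, adjusted p = 0.0233) and Nr4a1 by 1.27 (SE 0.34, adjusted p = 0.0262) as deposited, and by 1.48 and 1.33 after removal. As deposited, both calls were lost without any 1 of Mod replicates 2 and 5 and 6-OHG replicates 1, 3 and 4, with adjusted p of up to 0.0697 and 0.0739. After removal (limma adjusted p = 0.0347 and 0.0381), both were lost without any 1 of Mod replicates 2 to 5 and 6-OHG replicates 1, 3 and 4. Nr4a1 was also lost there without Con replicate 3, and the adjusted p reached 0.0928 and 0.0974. Their promoters, from RefSeq on GRCm38.p6 and cut as above, are shown for the cyclic AMP response element, TGACGTCA, and its first part, TGACG, which is contained in the whole element. Egr2 is at chr10:67537619-67537918 and Nr4a1 at chr15:101266596-101266895, both on the plus strand, and capitals mark matches to TGACG on either strand.
Egr2: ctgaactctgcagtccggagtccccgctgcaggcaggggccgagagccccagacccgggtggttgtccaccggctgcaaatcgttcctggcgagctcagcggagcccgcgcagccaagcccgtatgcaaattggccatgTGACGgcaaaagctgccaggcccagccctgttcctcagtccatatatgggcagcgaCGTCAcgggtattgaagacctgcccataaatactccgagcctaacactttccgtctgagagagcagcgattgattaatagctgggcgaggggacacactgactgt
Nr4a1: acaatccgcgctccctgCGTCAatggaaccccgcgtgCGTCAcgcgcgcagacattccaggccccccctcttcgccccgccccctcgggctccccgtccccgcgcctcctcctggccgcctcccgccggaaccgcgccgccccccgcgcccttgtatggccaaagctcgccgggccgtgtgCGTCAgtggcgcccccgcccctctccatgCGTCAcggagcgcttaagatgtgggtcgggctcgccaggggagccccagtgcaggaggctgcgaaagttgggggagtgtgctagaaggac
The Egr2 window held 2 matches and the Nr4a1 window 4, and neither held the whole element. TGACG was found in 21.1% of 27025 windows, in 32.6% of those of tested genes and in 14 of 20 windows of immediate early genes (70.0%). The whole element was found in 1.9%, 3.37% and 2 of 20 (10.0%). Egr2 has 5 windows in the reference table, of which 1 is shown.

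Fosl2, an AP-1 subunit, was the member called higher whose libraries did not overlap, at 3.37, 3.32, 3.71 and 2.902 FPKM with 6-OHG and 2.16, 1.62, 1.69, 2.02 and 2.07 in Mod. It changed by 0.57 (adjusted p = 0.00768), a call kept with any library left out, and by 0.47 after removal, lost without any 1 of Mod replicates 2 and 3 and 6-OHG replicates 1 and 3 (adjusted p up to 0.0753). Fos, its better known relative, stood at 12.5, 8.803, 16.01 and 13.6 FPKM and 10.8, 3.35, 7.44, 3.55 and 5.06, and changed by 1.04 and 1.15. As deposited it lost its call without any 1 of Mod replicate 2 and 6-OHG replicates 1, 3 and 4 (adjusted p up to 0.06700). After removal it lost it without any 1 of Mod replicates 2 and 5 and 6-OHG replicates 1, 3 and 4 (up to 0.0721). Dusp1, a phosphatase of MAP kinases that glucocorticoids also switch on, changed by 0.55 and 0.61, and Nr4a3 by 0.85 and 0.82, the last not called (adjusted p = 0.0589). As deposited Dusp1 lost its call without any 1 of Mod replicates 2, 4 and 5 and 6-OHG replicates 1, 3 and 4 (adjusted p up to 0.0896), and Nr4a3 without any 1 of Mod replicates 2 to 4 and 6-OHG replicates 3 and 4 (up to 0.0913). After removal Dusp1 lost its call without any 1 of Mod replicates 2 to 5 and 6-OHG replicates 1, 3 and 4 (up to 0.0947). Jund, named after its value was seen, was the member called lower, as deposited only, and it was lost without any 1 of Mod replicates 1 and 5 and 6-OHG replicates 1 and 4 (adjusted p up to 0.0775).

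Of 22 glucocorticoid-induced genes 2 were called higher in both fits, Dusp1 and Per1, and the list's median was -0.03 and -0.01, signs that turned with equal sums. The shares of all genes called higher, for this list and the clock list below, were 6.98% as deposited and 4.17% after removal. The glucocorticoid count as deposited was near this background. Per1, a core gene of the circadian clock, stood at 21.9, 18.1, 19.1 and 18.7 FPKM with 6-OHG and 15.6, 12.7, 14.6, 15.4 and 12.7 in Mod. It changed by 0.43 (adjusted p = 0.0153) and 0.40 (0.0306, lost without any 1 of Mod replicates 2, 3 and 5 and 6-OHG replicates 1, 3 and 4, up to 0.0853). In the clock list of 19, 3 (Clock, Per1 and Rora) were called higher and 1 (Dbp) lower as deposited, and Per1 alone after removal. The hour of sampling is not given in the labels, and its part in the clock genes was not tested.

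Stress lists moved little, and their counts called lower as deposited were near the share of all genes. Over all genes, 6.98% were called higher and 8.35% lower as deposited, and 4.17% and 3.76% after removal. Heat shock proteins had 2 of 23 called lower as deposited and 1 after removal, Hspe1, a mitochondrial chaperonin, at 17.7 ± 0.359 against 22.7 ± 1.28 FPKM (-0.34 and -0.18, the second lost without any 1 of Mod replicates 2, 3 and 5 and 6-OHG replicates 1, 3 and 4, adjusted p up to 0.0714). The unfolded protein response had 2 called higher and 3 lower of 27 as deposited and 1 higher after removal. Calr, a chaperone of the endoplasmic reticulum, stood at 60.5 ± 2.72 against 72.2 ± 4.42 FPKM (-0.25; after removal adjusted p = 0.159). Dnajc3, an inhibitor of the kinase PERK, stood at 10.8 ± 0.667 against 9.099 ± 0.427 FPKM (0.22 and 0.21). It lost its call as deposited without any 1 of Mod replicates 2 and 3 and 6-OHG replicates 3 and 4 (adjusted p up to 0.0672) and after removal without any 1 of Con replicates 1 and 2, Mod replicates 1 to 5 and 6-OHG replicates 2 to 4 (up to 0.118). The medians of both lists as deposited lay within 0.03 of 0 and turned positive with equal sums or quantile normalization. Of 21 genes of apoptosis and p53, Bax and Bad were called lower as deposited and 0 by limma after removal, where 2 were higher and 3 lower at an unadjusted p under 0.05. Bax, which permeates the outer mitochondrial membrane, changed by -0.41 and was not called without 6-OHG replicate 4 (adjusted p = 0.0558).

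Antioxidant genes had 6 of 28 called lower and 0 higher as deposited, and 3 lower and 1 higher after removal, with medians of -0.12 and -0.05. Their median exon length was 2931.5 bases. Among all genes of 2 to 4 kb, 10.5% were called lower as deposited and 3.22% after removal. Mt3, the metallothionein of brain, stood at 48.8, 60.8, 62.8 and 49.8 FPKM with 6-OHG and 86.1, 82.1, 84.9, 72.3 and 91.04 in Mod, without overlap. It changed by -0.58 (adjusted p = 0.00194) and -0.40 (0.0169, and 0.0539 without 6-OHG replicate 4). Sod1, the cytosolic superoxide dismutase, and Prdx2, a peroxiredoxin, changed by -0.31 and -0.27 as deposited and by -0.28 and -0.19 after removal. After removal Sod1 was lost without any 1 of Mod replicates 1, 3 and 5 and 6-OHG replicates 1, 3 and 4 (adjusted p up to 0.0803), and Prdx2 without any 1 of Mod replicate 3 and 6-OHG replicates 3 and 4 (up to 0.06000). The count of 3 became 1 without Mod replicate 3, 5 without 6-OHG replicate 2 and 0 without 6-OHG replicate 4. Gclc, the rate-limiting enzyme of glutathione synthesis, was the 1 called higher after removal and was named after its value was seen. It was lost without any 1 of Mod replicates 1, 2, 3 and 5 and 6-OHG replicates 1, 3 and 4 (adjusted p up to 0.0758).

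Cholesterol synthesis had 2 of 23 called higher and 3 lower as deposited, and 1 of each after removal. Over all genes, 6.98% were called higher and 8.35% lower as deposited, and 4.17% and 3.76% after removal. Tm7sf2, a sterol reductase, and Pmvk, phosphomevalonate kinase, were called lower as deposited and changed by -0.27 and -0.36 and by -0.26 and -0.21 after removal, where Pmvk was not called. Tm7sf2 was lost there without any 1 of Mod replicates 1, 2, 3 and 5 and 6-OHG replicates 1, 3 and 4 (adjusted p up to 0.0676). The list's median was -0.00 as deposited, a sign that turned under each scaling tried, and the 2 calls higher became 1 without any 1 of Con replicates 1 to 3, Mod replicates 1 to 5 and 6-OHG replicates 1 to 3. Of 12 interferon and NF-kB genes 0 were called by limma as deposited, with 1 higher at an unadjusted p under 0.05. B2m, the light chain of class I molecules, was called higher after removal and was lost without any 1 of Con replicate 3, Mod replicates 1 to 3 and 6-OHG replicates 2 to 4 (adjusted p up to 0.0918).

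Markers of the hypothalamus, most of them peptides, had a median change of -1.97 as deposited and -1.79 after removal. In bulk tissue, fewer cells of a type and less RNA per cell cannot be told apart. Hcrt, which encodes orexin, stood at 0.07601, 0.0439, 1.25 and 2.2 FPKM with 6-OHG and 9.18, 5.33, 9.47, 4.43 and 9.58 in Mod, without overlap. It changed by -2.30 (SE 0.51, adjusted p = 0.01098) and -2.11 (0.0291, lost without any 1 of Mod replicates 1, 2, 3 and 5 and 6-OHG replicates 1 and 2, up to 0.0792). Pmch, which encodes melanin-concentrating hormone, stood at 0.286, 0.679, 30.04 and 21.2 FPKM with 6-OHG and 73.2, 56.4, 61.1, 23.3 and 79.5 in Mod. Replicates 1 and 2 with 6-OHG were under 1 FPKM, and replicate 3 lay above the lowest Mod library. Its call as deposited (-3.15, adjusted p = 0.0459) was lost without any 1 of Con replicates 1 and 4, Mod replicates 1, 2, 3 and 5 and 6-OHG replicates 1 and 2, up to 0.131. Gal changed by -1.19 (adjusted p = 0.0392), and lost its call without any 1 of Mod replicates 1, 3 and 4 and 6-OHG replicates 1 and 3 (up to 0.1100).

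The list of hypothalamic markers includes these peptides. Of 11 listed, 6 were measured and 4 called lower as deposited (Hcrt, Pmch, Trh and Gal), with Hcrt alone after removal. Their median exon length was 749 bases, and of all genes under 1 kb 17.5% were called lower as deposited and 5.55% after removal. The summed FPKM of the list were 2.25 to 41.5 with 6-OHG, 70.9 to 127.9 in Mod and 4.83 to 77.3 in Con, so Con also reached low levels. The mean log2 level was 0.43, 0.75, 2.03 and 2.60 with 6-OHG and 2.55 to 3.87 in Mod, with overlap. The 4 calls became 1 without Mod replicate 1 or 3 or 6-OHG replicate 1, and 2 without Con replicate 1, Mod replicate 4 or 5 or 6-OHG replicate 2 or 3. How much of the hypothalamus each piece of tissue held is not given, and its part in the neuropeptide result was not tested. Of 20 neuropeptides 5 were called lower as deposited and Hcrt alone after removal. Their median exon length was 1291 bases. Among all genes of 1 to 2 kb, 21.7% were called lower as deposited and 4.96% after removal, so both counts were near this background. Tac2, neurokinin B, stood at 2.55 ± 0.714 against 5.08 ± 0.914 FPKM (-0.79, adjusted p = 0.0182, and 0.0533 without 6-OHG replicate 3). The count of 5 became 2 without Mod replicate 1 or 3 or 6-OHG replicate 1 or 3, and 3 without Con replicate 1 or Mod replicate 4.

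**Figure D5:**
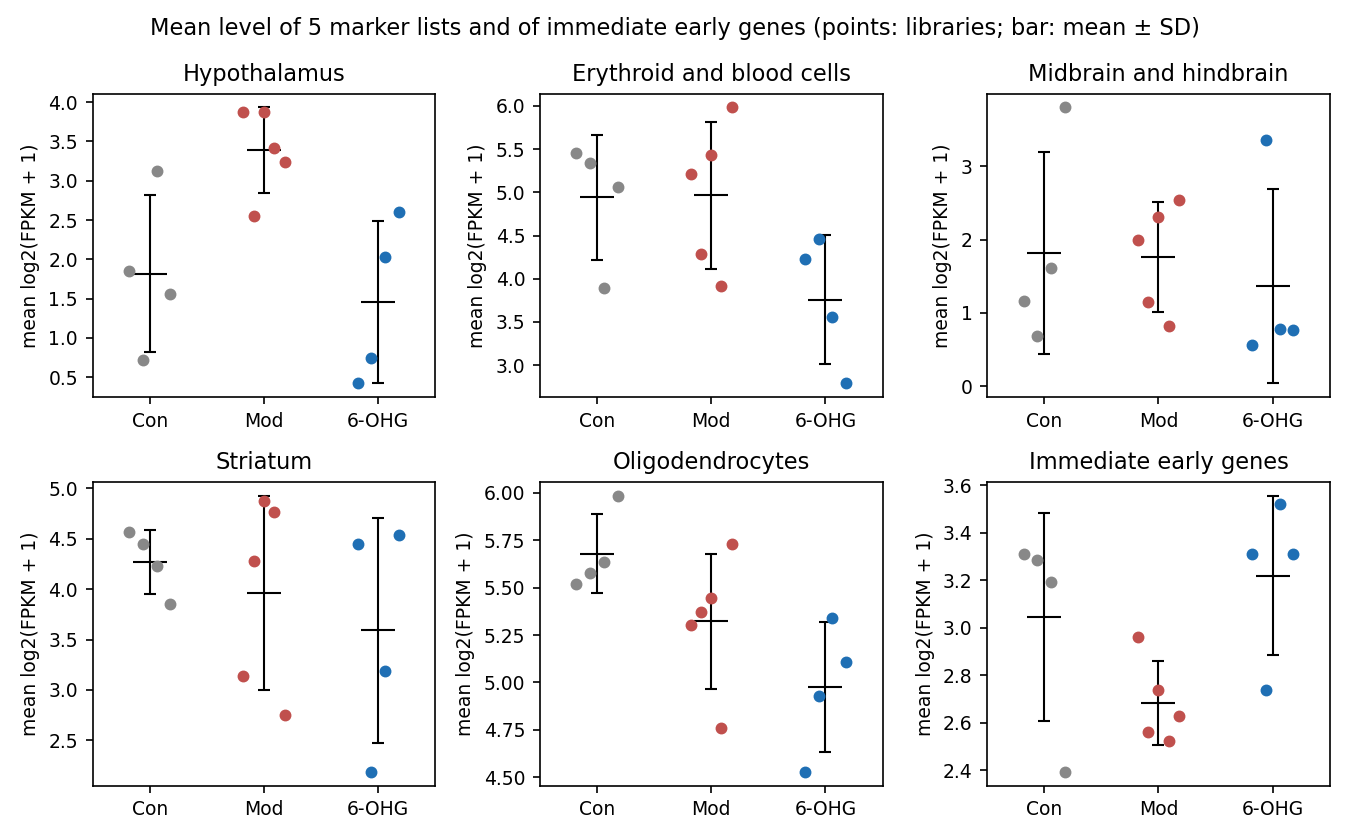
Mean log2(FPKM + 1) of 5 marker lists and of the immediate early genes in each library of Con, Mod and 6-OHG, with means ± SD. Hypothalamic markers stood at 0.43, 0.75, 2.03 and 2.60 with 6-OHG and at 2.55 to 3.87 in Mod, with overlap. Midbrain markers were highest within the group in 6-OHG replicate 2, and oligodendrocyte and striatal markers also overlapped between the groups. The axes do not start at 0.

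Mean levels of the other region lists given here also overlapped between the groups. For the region and cell lists in this paragraph, the shares of all genes were 6.98% called higher and 8.35% lower as deposited, and 4.17% and 3.76% after removal. Of 8 thalamic markers, Rora was called higher and Ramp3 lower as deposited, the clock and vessel genes above, with 0 called by limma after removal (1 in each direction at an unadjusted p under 0.05). The list's median change was -0.48 and -0.43, and its mean log2 level 1.84 to 2.72 with 6-OHG and 2.13 to 3.00 in Mod. Of 6 markers of choroid plexus and ependyma 1, Ccdc153, was called lower as deposited, 0 without any 1 of Mod replicates 1, 3 and 5 and 6-OHG replicate 1, and 3 without Mod replicate 4. Their summed FPKM ran from 7.53 to 363 with 6-OHG and 51.1 to 258 in Mod. Of 11 cortical layer markers 1, Rprm, was called lower as deposited, and it was not called with equal sums or without any 1 of Mod replicates 1 and 2 and 6-OHG replicate 2. Both genes were named after their values were seen. Markers of midbrain and hindbrain had mean log2 levels of 0.57, 3.35, 0.78 and 0.77 with 6-OHG and 0.82 to 2.54 in Mod, so 6-OHG replicate 2 stood apart within its group. Markers of striatum stood at 4.45, 2.19, 3.19 and 4.53 with 6-OHG and 2.75 to 4.87 in Mod. Of these lists 0 of 7 and 0 of 12 members were called by limma in either fit, and 0 passed an unadjusted p under 0.05. Markers of oligodendrocytes had a median change of -0.32 as deposited and -0.31 after removal, with 0 of 14 called by limma (4 lower at an unadjusted p under 0.05 as deposited and 2 after removal), and summed to 774.2 to 1424 FPKM with 6-OHG and 952.3 to 2176 in Mod. Without Mod replicate 4, 4 of these were called lower as deposited, and without 6-OHG replicate 3, 2. Markers of excitatory neurons, inhibitory neurons and astrocytes (12 each) had 0 called by limma in either fit, and at an unadjusted p under 0.05 there was 1 lower of inhibitory neurons as deposited and 1 lower of astrocytes after removal. Neuronal markers were abundant in each of the 9 libraries, at sums of 506.1 to 1099 FPKM for excitatory neurons. Of precursors of oligodendrocytes 1 of 10 was called, Olig1, and of microglial markers 1 of 15, C1qb, both lower as deposited only. Olig1 lost its call without any 1 of Con replicates 1 to 3, Mod replicates 1, 2, 3 and 5 and 6-OHG replicates 1, 2 and 4 (adjusted p up to 0.123), and C1qb without any 1 of Mod replicates 1 to 3 and 6-OHG replicates 1, 3 and 4 (up to 0.0819). The part of these region and cell markers in the gene results above was not tested. The HIF-1 target, ribosomal and complex I counts without Con replicate 4 and 6-OHG replicate 2, an alternative chosen after the data were seen, were 11, 53 and 32 called lower as deposited.

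Of blood transcripts 1 was called lower. Hba-a2, alpha globin, stood at 18.3, 26.01, 16.5 and 7.42 FPKM with 6-OHG and 60.2, 28.2, 72.6, 25.1 and 120.1 in Mod, with overlap, and was called as deposited (-1.67, adjusted p = 0.0442) but lost without any 1 of Con replicates 1 and 2, Mod replicates 1, 3 and 5 and 6-OHG replicates 1, 3 and 4 (up to 0.129). Hbb-bs and Hbb-bt, the beta globins, had changes of -1.30 and -1.37 that were not called (adjusted p = 0.104 and 0.0707). Of 12 listed erythroid and blood genes 5 were measured, and their sums were 40.9 to 175.5 FPKM with 6-OHG and 108.8 to 520.1 in Mod. Their median exon length was 768 bases, and of all genes under 1 kb 17.5% were called lower as deposited and 5.55% after removal. The globin genes are near-identical copies between which reads can be split, so each value is uncertain. The amount of blood left in the tissue is not given, and its part in these values was not tested.

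Some genes went against their length class. Over 8 kb of exon, 18 genes were called lower as deposited. With predicted and unnamed loci left out, the 3 largest changes were in Col11a1, Fam193b and Ipo9. Ipo9, an importin that carries proteins into the nucleus (8233 bases), stood at 23.5, 23.1, 25.9 and 26.8 FPKM with 6-OHG and 32.9, 32.9, 31.98, 30.9 and 31.1 in Mod. It changed by -0.35 (adjusted p = 0.00174) and -0.44 (adjusted p = 0.00231). Fam193b (11540 bases) stood at 4.91, 5.01, 5.89 and 5.57 and 7.09, 8.39, 7.55, 6.71 and 7.71, and changed by -0.42 and -0.55. Both kept both calls with any library left out, and in neither did the groups overlap. Col11a1, a fibrillar collagen, changed by -0.49 and -0.63, and lost its call as deposited without any 1 of Mod replicates 2, 3 and 5 and 6-OHG replicates 1 and 3 (adjusted p up to 0.07700). In the class of 4 to 8 kb, Dpysl2, which shapes axon growth (4520 bases), stood at 17.9, 23.9, 19.3 and 18.99 FPKM with 6-OHG and 27.2, 25.8, 30.3, 29.2 and 36.6 in Mod, without overlap, and changed by -0.55 and -0.54. Because its fall was slightly smaller after removal, it went against its class but not against the fitted trend at its own length.

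The removal also changed the counts called in each kind of RNA. Processed pseudogenes, with a median of 579 bases of exon, had 19 of 746 called higher and 125 lower as deposited, and 43 and 36 after removal. Their median change was -0.12 and 0.04. Genes under 1 kb of any kind had 1.14% called higher and 17.5% lower as deposited, and 3.27% and 5.55% after removal. The pseudogenes called lower as deposited were near the share of their length class. Pseudogenes make up a large part of that class themselves, so no conclusion is drawn from this. Antisense genes had 6 of 219 called higher and 2 lower as deposited, and 11 and 0 after removal, with medians of -0.00 and 0.11. Whether their reads were told apart from those of their partners is unknown, because the strand setting is not stated. Long intergenic RNAs had 12 of 231 called higher and 13 lower as deposited, and 13 and 3 after removal. Protein-coding genes had 912 of 12027 called higher and 985 lower as deposited, and 472 and 468 after removal. Over all genes tested, 6.98% were called higher and 8.35% lower as deposited, and 4.17% and 3.76% after removal. Because 1 curve per library was fitted over all kinds of RNA, noncoding kinds and protein-coding genes of the same length were shifted alike.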

How the data were processed

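RNA was sequenced from 13 mouse brain libraries, of which the 4 with 6-OHG and the 5 Mod libraries were compared. The values used are FPKM per gene as the authors deposited them. The submitters' processing notes list, without roles, edgeR, DESeq2, HISAT2 2.2.1, featureCounts 1.5.0-p3, cutadapt 1.9, StringTie 2.1.6 and FastQC, and the builds GRCm38 and mm10; the tool that made the FPKM is not given in the sources used here. Whether poly(A) selection or rRNA depletion was used, the strand setting, and how reads shared by gene copies were assigned are not given in the sources used here. No fragment counts were recovered from the FPKM, so no count model was run and the depth behind single values is unknown.

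Genes averaging 1 FPKM or more across all 13 libraries were tested on log2(FPKM + 1) with limma 3.58.1 in R 4.3.3, with 3 group means, a mean-variance trend and Benjamini-Hochberg adjustment over all genes tested, and were called at an adjusted p under 0.05. In a second fit, a natural spline with 5 degrees of freedom in log2 summed exon length was fitted in each library to the deviations from the gene means and subtracted first. Values per library were compared with exact permutation tests. The scripts were tested on simulated data. The groups and replicate numbers came from the labels. Genes named were the 12 largest rises and falls called in both fits without overlap of the groups, from each list the 3 smallest p and the members called in both fits, the 3 largest called changes per length class, and the largest called in 1 fit only; others are said to be chosen after their values were seen. Predicted and unnamed loci were left out wherever genes were ranked by size of change. The members and lists were chosen with earlier results of these data known. Alternatives covered pseudocount, filter, scaling, weights, trend removal, the replicate block and each library left out. Some members of the lists are counted but not reported here by name.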

Additional observations from a re-analysis of the deposited data

Results flagged for a closer look

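In 17 of 324 groups of 4 or 5 values tested, the highest or lowest library stood farther from the others than Dixon's 95% critical value, where chance gives about 16.2. Of these libraries, 6-OHG replicate 2 accounted for 4. It was the highest of its group in P4ha2 (2.951 FPKM, others 2.337 to 2.43), Psma7 (22.55, others 20.01 to 20.17) and the midbrain and hindbrain markers (mean log2 level 3.351, others 0.569 to 0.779), and the lowest in Calr (56.42, others 61.5 to 62.39). 6-OHG replicate 1 was the lowest in Slc16a3 (1.034 FPKM, others 1.245 to 1.279) and Phgdh (3.552, others 4.861 to 5.087) and the highest in Cntnap1 (44.12, others 37.11 to 37.68). 6-OHG replicate 3 was the highest in the share of FPKM in genes under 1 kb (20.94%, others 19.3 to 19.53). 6-OHG replicate 4 was the lowest in Mvk (3.362 FPKM, others 3.767 to 3.821) and Slco1a4 (3.171, others 4.467 to 4.602).

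Among Mod libraries, replicate 1 was the highest in Syt11 (104.6 FPKM, others 93.57 to 96.71), and replicate 3 in Ank3 (8.989, others 8.061 to 8.249). Replicate 4 was the lowest in Gng11 (7.797 FPKM, others 12.4 to 13.65), Fau (95.6, others 106.8 to 110.7) and the choroid plexus markers (mean log2 level 1.982, others 2.496 to 2.675). Replicate 5 was the lowest in Ldha (119.1 FPKM, others 133.0 to 137.9) and the highest in Lars2 (17.58, others 7.055 to 10.04). The cause was not tested for any of them.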

How the results depend on the processing

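As deposited (970 genes higher, 1161 lower), no filter on low values gave 735 lower, equal FPKM sums 398 lower, equal sums outside the mitochondrial genome 1792 higher and 661 lower, and a minimum change of 1 on the log2 scale 8 and 13. Leaving out each of the 13 libraries gave 600 to 1076 higher and 757 to 1322 lower. After removal of the trend (580 and 523), no filter gave 1127 and 909, a filter at 5 FPKM 365 and 314, sample weights 816 lower, Mod and 6-OHG libraries alone 313 lower, a minimum change of 1 gave 10 and 3, and leaving out Con replicate 4 and 6-OHG replicate 2 together, chosen after the data were seen, 796 lower. Leaving out each library gave 294 to 651 higher and 218 to 574 lower, the lowest without 6-OHG replicate 4. Other alternatives of the 4 counts stayed within 1.5 times. With the replicate number as a block the counts were 371 and 475 as deposited and 94 and 56 after removal. Deviations of same-numbered libraries of 6-OHG and Mod correlated at -0.293, -0.383, -0.0915 and 0.194, so the numbers were not taken to pair the libraries. The slope difference had an exact permutation p of 0.0159 with a pseudocount of 0.1 (0.0714), a minimum of 5 FPKM (0.103) and the longest transcript (0.0733) too. With the minimum of 5 FPKM, the Con slopes overlapped those of Mod, with Con replicate 4 at -0.250 and Mod replicate 4 at -0.223. Among changes of single genes and counts called in lists, 8202 alternatives kept direction and call, 874 lost and 60 gained a call, 675 moved and 13 reversed. Medians of lists are not among these. The reversed values were changes of mt-Co3, exon length trend removed (0.0202 with a filter at 5 FPKM, 0.147 with quantile normalization, 0.0418 with protein-coding genes only, and -0.1385 to 0.00039 over left-out libraries), of Rab3a, exon length trend removed (0.0485 with quantile normalization), of Ntrk3, exon length trend removed (0.0111 with no filter, 0.0605 with a straight line, 0.0807 with genomic span, and -0.0757 to 0.0197 over left-out libraries), and of Crebbp, as deposited (0.0402 with equal sums, 0.0244 with equal sums outside the mitochondrial genome). The cause was not tested. No scaling moved the median over all genes by more than 0.1. Depth per library is unknown, which limits what can be said of genes at a few FPKM.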

Other observations

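Ribosomal protein genes often start with a run of pyrimidines, the TOP motif through which their translation is controlled. In a description chosen after the data were seen, 17 of 46 ribosomal protein genes with a promoter in the reference table had such a start. These 17 had a median change of -0.42 as deposited, with 13 called lower, and 7 called lower after removal of the exon length trend. The 29 without it had a median of -0.37, with 21 called lower and 15 after removal. Of 667 other tested genes with such a start 39 were called higher and 53 lower. No difference between these groups was tested.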
